A study of Drosophila melanogaster with 5 samples.

Results

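The 42 genes described here encode the ligands, receptors, receptor tyrosine phosphatases and adhesion proteins that steer growing axons, with 3 of the cytoplasmic proteins that act below them. They were chosen by gene symbol from a list of names, and all 42 were found among 13791 genes with values above 0 in both groups of both tables used. Of these, 39 were listed under their own symbol, robo1 and robo2 were listed as robo and lea, and conn was matched as Con through its RefSeq synonym. Their transcripts were measured by RNA-seq of the whole central nervous system (CNS) of Drosophila melanogaster larvae of the third instar, 84 h after egg laying, with about 15 CNS pooled per library. The IP3R knockdown had 2 libraries (ElavC155GAL4/+; UAS-dsitpr/+; UAS-dicer/+) and the control had 3 libraries (UAS-dsitpr/+; UAS-dicer/+). Both groups thus carried the RNAi construct against itpr, the gene of the IP3 receptor that releases Ca2+ from the endoplasmic reticulum, and the dicer transgene. The knockdown alone carried a GAL4 driver. Expression of the RNAi and of Dicer-2, the driver itself and anything else that set the groups apart cannot be told apart as sources of a difference. The sample labels and a figure legend of the study name the pan-neuronal elav driver, whereas the methods of the study name VGN6341-GAL4, which marks a subset of glutamatergic neurons.

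Axons find their targets by reading cues on cells around them. Slit, secreted by midline glia, repels axons that carry Robo receptors, and Netrins attract axons through Frazzled and repel them through Unc-5. Semaphorins act mostly through plexins, Dscam proteins and teneurins mark cell surfaces for recognition, and receptor tyrosine phosphatases set the phosphorylation of proteins in the growth cone. At the third instar most of the larval wiring is in place, while neurons born in the larva are extending neurites for the adult brain.

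Abundance is given in 2 units. FPKM, fragments scaled to transcript length and to the depth of the libraries, is the authors' single value for each group. Normalised counts are reads per gene divided by the relative depth of the library, of which the authors deposited the mean of each group. The whole-number reads of each of the 2 knockdown libraries could be solved from these means for all 42 genes, but it is not known which library is replicate 1, so they are called the deeper (13383135 reads in genes) and the shallower (10283964 reads). Values of the 2 knockdown libraries are printed in that order. Control libraries could not be separated, so no spread between controls and no test of a gene was computed here, and the authors' own tests were not used. A gene is called lower where knockdown was at most 0.75 times control in both units, and higher where it was above control by 25% or more in both. Log2 ratios are of knockdown over control and, unless a unit is named, are the mean of both units.

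In the knockdown CNS the targeted gene, listed as Itp-r83A, had an FPKM of 15.0, against 24.7 in control, and 2032 and 1995 normalised counts in the 2 knockdown libraries, against a control mean of 3063. Dcr-2 was 3.09 times as abundant in knockdown by FPKM. The groups also differed in w, with an FPKM of 116 in knockdown and 13.4 in control, and the source of this was not tested. Neuronal markers were lower for 6 of 11 genes, with a summed FPKM of 560 in knockdown and 692 in control, while 0 of 8 glial markers were called, with sums of 797 in knockdown and 764 in control. The neuronal markers were also longer, with a median exon length of 8054 bases against 2613.5 for the glial ones, and length went with the ratio in these data. All 9 body wall muscle markers were lower, with sums of 545 in knockdown and 882 in control, as were 5 of 6 fat body markers (215 in knockdown, 504 in control), 8 of 8 cuticle markers (119 in knockdown, 1049 in control) and 8 of 9 salivary gland markers with values (18.1 in knockdown, 851 in control). None of these markers had a group value of 0. Of 7 neuroblast markers 1 was higher and of 6 imaginal disc markers 1 was lower. The 2 knockdown libraries also differed in these tissues: fat body markers summed to 8846 and 2371 normalised counts in them, against 13101 in control, and muscle markers to 16833 and 8620 in knockdown against 25187 in control. The part of these other tissues in the ratios of the guidance genes was not tested.

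More guidance genes were below than above control in the IP3R knockdown. Of the 42 genes, 13 (31.0%) were lower and 0 were higher, where 16.7% of all genes were lower and 16.9% were higher. The 13 were Ten-a, Dscam2, Dscam4, Ten-m, NetB, Dscam1, Lar, sli, Dscam3, Ptp10D, robo1, otk and Drl-2. Below the control in both units, by any amount, were 32 of the 42 (76.2%), against 41.4% of all genes, and above it in both units were 10, against 52.4%. The median log2 ratio of the 42 was -0.30, beside 0.04 over all genes. Guidance genes are long. In their whole range of exon length 20.6% of genes were lower, less than the 31.0% of guidance genes. Relative to the 200 genes nearest in exon length the difference was not seen. There 1 guidance gene was lower, 6 were higher and the median log2 ratio was 0.022. The share of all genes called lower or higher in that comparison was not computed. None of the genes was halved in both units. In pooled whole CNS, fewer cells of a type and less RNA per cell cannot be told apart.

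**Figure D1:**
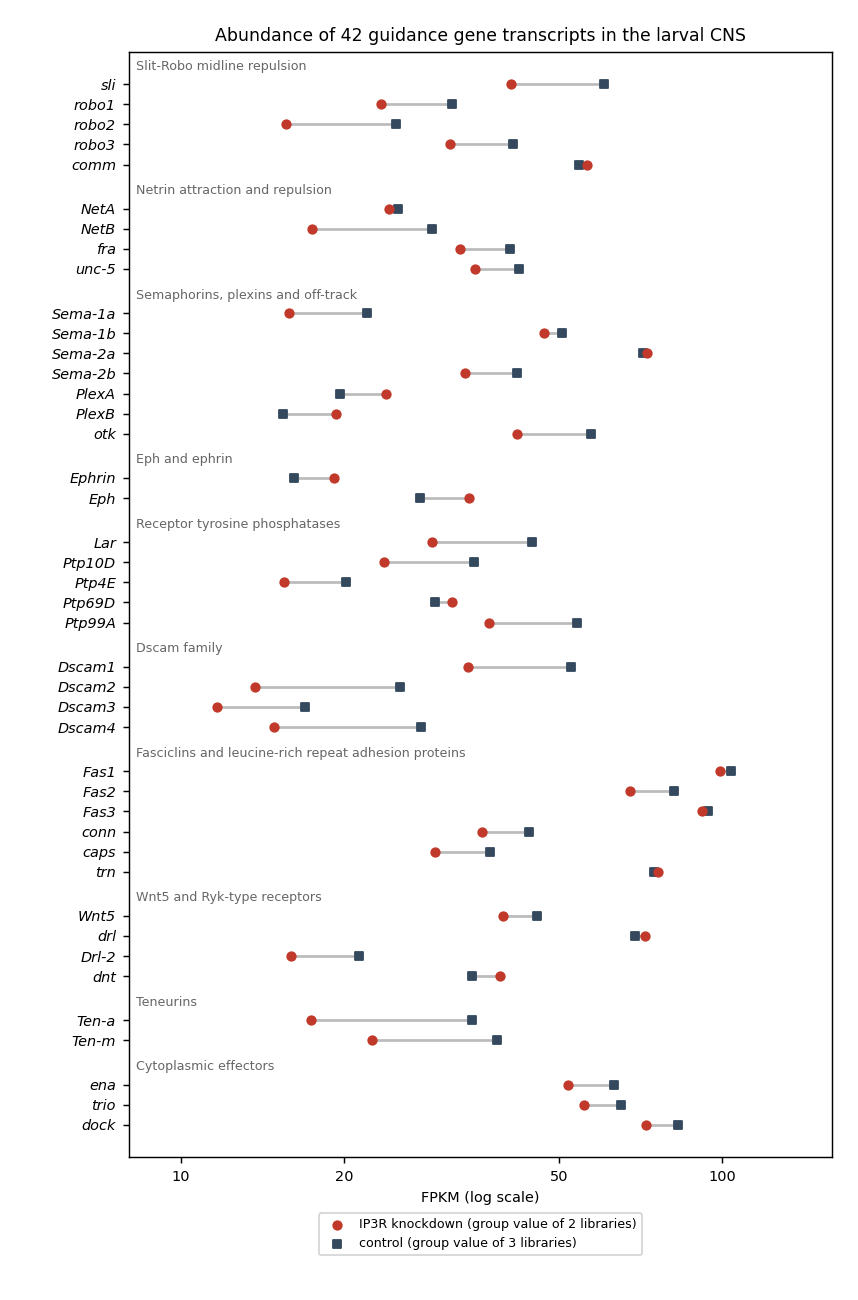
Abundance of the 42 guidance gene transcripts in FPKM (log scale), grouped by role, with the IP3R knockdown group value as a red circle and the control group value as a dark square, and with no error bars because each is a single value of the authors. Red circles run from 11.7 (Dscam3) to 99.3 (Fas1) and squares from 15.4 (PlexB) to 104 (Fas1), and the circle lies left of its square for 32 genes.

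All 42 genes were well expressed, so that none of the ratios rests on a trace. FPKM ranged from 11.7 to 99.3 in knockdown, with a median of 33.1, and from 15.4 to 104 in control, with a median of 40.8. The medians over all genes were 26.7 in knockdown and 30.2 in control. Among the 6887 genes within the same range of control FPKM, 12.7% were lower, 5.95% were higher and the median log2 ratio was 0.01. The counting interval of a log2 ratio of normalised counts (95%, from the number of reads alone) was between 0.037 and 0.096 to either side. For 27 of the 42 genes the gap between the 2 knockdown libraries was wider than that whole interval, so counting error understates the error of these ratios. The gap had a median of 0.13 on the log2 scale and reached 0.31 for robo2.

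The knockdown libraries gave the same direction for most genes. Both lay below the control mean for 31 genes and both above it for 7, and for NetA, Sema-2a, trn and drl (4 genes) they lay on either side of it. Over all genes both libraries lay below the control mean in 33.6% and above it in 36.1%. Each of the 2 libraries alone was at most 0.75 times the control mean for 12 guidance genes, which are the 13 without otk, against 12.8% of all genes. Each alone was above it by 25% or more for 0 guidance genes, against 10.2%. Among the 42, the shallower library had the higher normalised count for 34, where it did so for 49.0% of all genes, and its value was 0.838 (Ptp69D) to 1.24 (robo2) times that of the deeper. The deeper library also held more fat body and muscle transcripts, and whether this bears on the 34 genes was not tested. Over all genes the gap varied with exon length. The median log2 ratio of shallower over deeper was 0.068 in the longest of 20 length bins and -0.020 at 3030 to 3478 bases. It was also 0.068 at 597 to 735 bases.

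**Figure D2:**
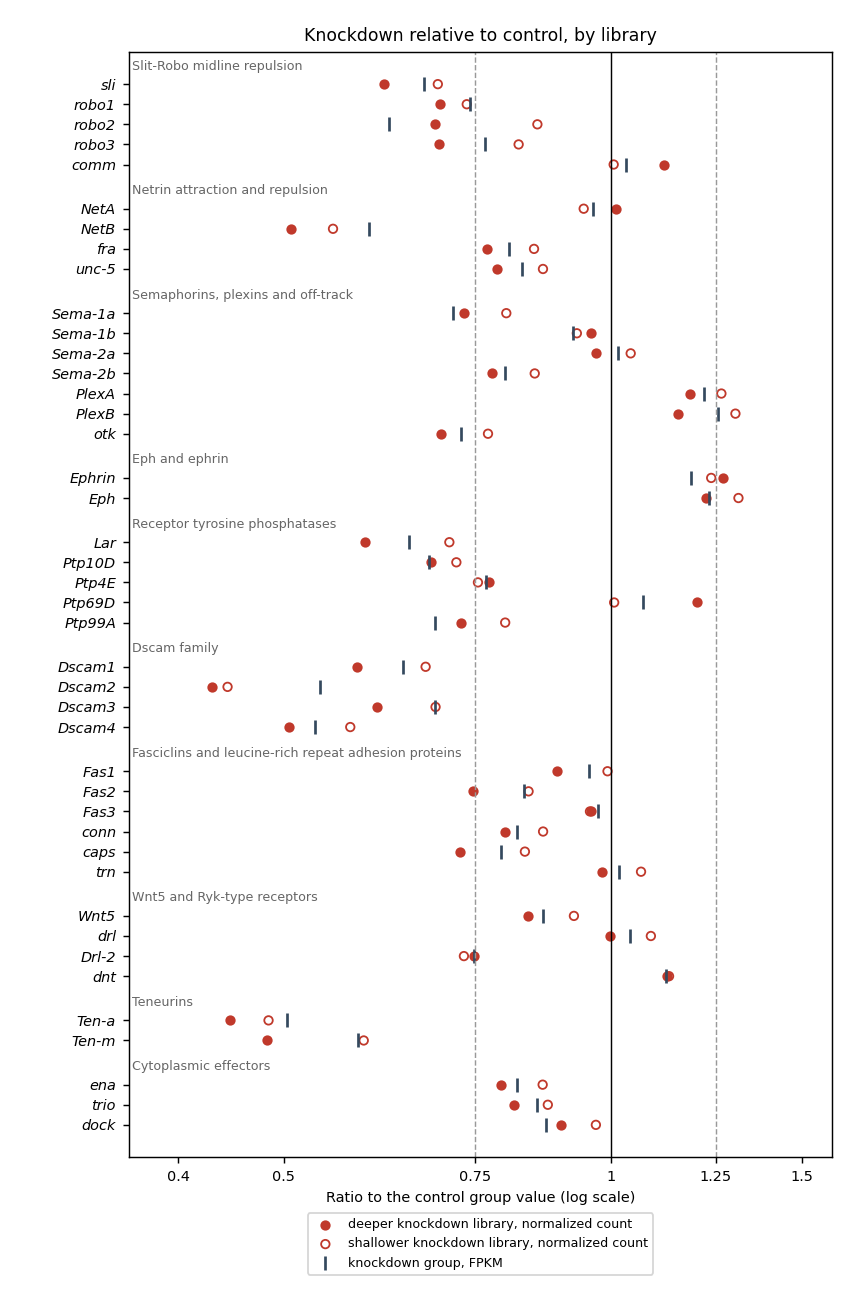
Ratio of knockdown to control for each guidance gene (log scale), with the normalised count of the deeper knockdown library as a filled circle and of the shallower as an open circle, each over the control mean, and the FPKM ratio of the groups as a bar. Dashed lines mark a difference of 25% either way, and for 12 genes, led by Dscam2, Ten-a, Dscam4, NetB and Ten-m, both circles lie at or left of the lower line.

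The teneurins, large transmembrane proteins that match synaptic partners by binding each other across the gap, had the lowest median log2 ratio of any role, at -0.94. Ten-a (chromosome X, 12043698 to 12335214 on dm6) had 1967 and 2133 normalised counts in the knockdown libraries, against a control mean of 4404, and an FPKM of 17.4 in knockdown and 34.5 in control. Both knockdown libraries held less than 0.5 times the control mean, and the log2 ratio was -1.05, the lowest of the 42 and next to Dscam2 at -1.04. Ten-m (chromosome 3L, 22293044 to 22407863) had 2434 and 2987 normalised counts in knockdown, against 5041 in control, and 22.5 FPKM in knockdown against 38.4 in control. Its log2 ratio was -0.83, and its 2 knockdown libraries stood further apart than those of Ten-a.

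The Dscam family consists of immunoglobulin proteins with which neurites recognise and avoid their own kind, and all 4 of its genes were lower. Their exon lengths ran from 7913 bases (Dscam4) to 26496 (Dscam1). The genes nearest to them in exon length had median log2 ratios of -0.46 (Dscam4) to -0.64 (Dscam1). Dscam2, which keeps neighbouring cells of a type apart in the visual system (chromosome 3L, 7159199 to 7189931), had 830 and 858 normalised counts in knockdown, against 1932 in control. These 2 libraries agreed closely, at 0.437 times the control mean together, whereas the FPKM ratio was milder at 0.540 (13.7 in knockdown, 25.4 in control). Dscam4 (chromosome 3L, 8238647 to 8282398) had 1253 and 1427 normalised counts in knockdown against 2477 in control, a log2 ratio of -0.90. Dscam1, whose alternative exons give neurons their molecular identity, had 2772 and 3210 in knockdown against 4751 in control. Dscam3 had the lowest FPKM of the family in both groups, with 924 and 1045 in knockdown against 1515 in control in normalised counts, and 11.7 FPKM in knockdown against 16.9 in control. Dscam1 and Dscam3 differed less from control than Dscam2 and Dscam4 did, with log2 ratios of -0.65 and -0.58.

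The 2 Netrins, secreted cues of the ventral midline that lie side by side on chromosome X, stood apart from each other. NetB (14686038 to 14749376) had 1130 and 1234 normalised counts in the knockdown libraries, against 2223 in control, and 17.4 FPKM in knockdown against 29.1 in control. NetA (14604012 to 14653928) had 1016 and 949 normalised counts in knockdown, on either side of the control mean of 1005, and 24.2 FPKM in knockdown against 25.2 in control. The log2 ratio was thus -0.83 for NetB and -0.04 for NetA, so that in knockdown NetA had the higher FPKM of the pair and in control NetB did. The 2 genes also differ in exon length, at 8168 bases for NetB and 3343 for NetA, and length went with the ratio in these data. In log2 ratio their receptors lay between the 2 Netrins. The attractive receptor gene fra had 2349 and 2598 normalised counts in knockdown against 3056 in control, and unc-5, for the repulsive receptor, had 2072 and 2284 in knockdown against 2636 in control. Both were below control in both libraries, by a log2 ratio of -0.31 for fra and -0.27 for unc-5, and neither was past the fold.

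In the Slit pathway, the ligand and one receptor were lower. Transcripts of sli, the repellent of the midline, had 3921 and 4396 normalised counts in knockdown against 6340 in control, and 40.7 FPKM in knockdown against 60.5 in control. For robo1, the receptor that keeps axons from recrossing the midline, the values were 1804 and 1907 in knockdown against 2588 in control, in normalised counts, and its log2 ratio of -0.46 was milder than that of sli at -0.59. The related receptors robo2 and robo3, which also place axons in lateral tracts, were below control without being past the fold. For robo2 the 2 units differed, with 0.624 by FPKM and 0.773 by normalised counts, and its knockdown libraries of 2085 and 2589 were the furthest apart of all 42 genes (control mean 3024). Non-coding RNA genes share 41.0% of its exon bases, and the libraries do not mark strand, so reads of robo2 and of these genes cannot be told apart. For robo3, with 1946 and 2304 in knockdown against 2800 in control, in normalised counts, both units lay just outside the threshold, at 0.767 and 0.759. Commissureless, which keeps Robo off the growth cone surface, was not below control: comm had 1130 and 1016 normalised counts in knockdown against 1009 in control.

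Receptor tyrosine phosphatases act in motor axon and photoreceptor targeting, and 2 of the 5 were lower. Lar had 2462 and 2941 normalised counts in knockdown against 4139 in control, and 29.1 FPKM in knockdown against 44.6 in control. Ptp10D, which acts at the midline, had 2014 and 2123 in knockdown against 2945 in control, in normalised counts, and its close relative Ptp4E had 1105 and 1080 in knockdown against 1431 in control. Ptp4E was just outside the threshold (0.768 by FPKM, 0.764 by counts), and Ptp99A, with 2298 and 2523 in knockdown against 3155 in control, passed by FPKM (0.689) and not by counts (0.764). Ptp69D differed from these 4: it had 2253 normalised counts in the deeper knockdown library and 1889 in the shallower, against 1874 in control, and 31.6 FPKM in knockdown against 29.5 in control. Most exon bases of Lar (83.6%) are shared in the annotation with CG46244 and 17.2% of those of Ptp99A with CG2321, so their values may hold reads of those genes.

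Semaphorins and plexins showed both directions. Sema-1a, a transmembrane ligand that also acts as a receptor, had 1479 and 1619 normalised counts in knockdown against 2019 in control, past the threshold by FPKM at 0.716 and not by counts at 0.767. The secreted Sema-2b, an attractive cue for longitudinal axons, had 1746 and 1912 in knockdown against 2246 in control, and the secreted repellent Sema-2a had 3201 and 3444 in knockdown, on either side of the control mean of 3300.5. Sema-1b was close to control, at 2290 and 2222 in knockdown against 2387 in control. The ligands were thus spread over log2 ratios of -0.43 to 0.02. Among the receptors, otk (off-track, a kinase-like protein found with plexins) was lower, with 2222 and 2457 normalised counts in knockdown against 3186 in control, although the shallower library alone, at 0.771, was not past the fold. The plexins were above control: PlexA, the receptor of Sema-1a, had 1664 and 1778 in knockdown against 1406 in control, and PlexB, a receptor of Sema-2a, had 1541 and 1741 in knockdown against 1336 in control.

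Eph, a receptor tyrosine kinase, and its membrane-bound ligand Ephrin were also more abundant in knockdown. Eph had 1729 and 1851 normalised counts in knockdown against 1412 in control, and 34.1 FPKM in knockdown against 27.6 in control. Ephrin had 807 and 787 normalised counts in knockdown against 636 in control, and 19.2 FPKM in knockdown against 16.2 in control. For each of these genes both knockdown libraries lay above the control mean. None of the 4 genes was called, since each missed the threshold in at least one unit. PlexB passed by FPKM alone, at 1.26 times control, and Eph and Ephrin by counts alone, Eph at 1.27 times control. PlexA, PlexB, Ephrin and Eph, with log2 ratios of 0.29 to 0.32, were the 4 highest of the 42, and they are the only 4 that lie on the small chromosome 4. Of the 96 other genes on that chromosome, 68.8% were above control in both units and 40.6% were higher, with a median log2 ratio of 0.23, beside 0.30 for the 4 guidance genes. The other chromosomes had medians of -0.46 to -0.27 over their 3 to 11 guidance genes. All 7 on chromosome X were below control in both units, as were 32 of the 42. For NetA, one of these 7, the knockdown libraries lay on either side of the control mean. The share of all genes of chromosome X below control was not computed.

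None of the 6 Fasciclins and leucine-rich repeat adhesion proteins was called. Fas2, the homophilic adhesion protein that bundles motor axons, had 2243 and 2526 normalised counts in knockdown against 3005 in control, and the leucine-rich repeat genes caps and conn had 1463 and 1678 in knockdown against 2012 in control, and 1697 and 1841 in knockdown against 2124 in control. These 3 were below control in both libraries, with log2 ratios of -0.28 to -0.35. Fas1, the most abundant of all 42 transcripts, had 99.3 FPKM in knockdown and 104 in control, and Fas3 had 91.9 in knockdown and 94.3 in control. The leucine-rich repeat gene trn, a close relative of caps, had 76.2 in knockdown and 74.8 in control. These 3 abundant transcripts were within 5% of control by FPKM. Over the 42 genes the log2 ratio had little rank correlation with control FPKM (Spearman's rho 0.11 across genes, which are not independent replicates).

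Wnt5, a ligand that repels axons carrying the Ryk-type receptor Derailed, had 1629 and 1794 normalised counts in knockdown against 1939 in control. The 3 Ryk-type receptor genes lay on both sides of control. Drl-2 had 1017 and 996 in knockdown against 1359 in control and was just inside the threshold, at 0.749 by FPKM and 0.740 by counts. In contrast drl, at 2463 and 2688 in knockdown against 2468 in control, was at the control level. Above it was dnt, at 1177 and 1183 in knockdown against 1045 in control, with a log2 ratio of 0.17. These 3 genes also differ in exon length, at 6020 bases for Drl-2, 3104 for drl and 2639 for dnt. Among the cytoplasmic effectors, ena, whose product extends actin filaments, had 1905 and 2082 in knockdown against 2405 in control. The guanine nucleotide exchange factor gene trio had 2782 and 2991 in knockdown against 3417 in control, and dock, for an SH2-SH3 adaptor, had 2719 and 2926 in knockdown against 3018 in control. All 3 were below control in both libraries, with log2 ratios of -0.28, -0.23 and -0.15, and none was past the fold.

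Outside the rule of choice, the lower guidance genes tended to be long, but length was not shared by all of them. Among the 13, otk had 4769 exon bases and Drl-2 had 6020, while trio (11281) and PlexA (10614) were longer and were not lower. The exons of the 42 genes, all isoforms merged in the Ensembl annotation of the same assembly coordinates, had a median of 6263 bases (2495 for comm to 26496 for Dscam1, where exons that exclude each other are all counted), against 1730.5 over all genes. In all, 28 of the 42 were in the longest 10% of all genes. Of the 18 genes under 6000 bases 1 was lower (otk) and the median log2 ratio was -0.06, of the 14 from 6000 to 9000 bases 6 were lower and the median was -0.41, and of the 10 longer ones 6 were lower and the median was -0.60. Across the 42 genes the log2 ratio and exon length had a Spearman's rho of -0.66, which was -0.82 over the 38 genes outside chromosome 4. The 4 genes left out had the highest ratios of the 42, at 5312 to 10614 bases. Leaving them out is therefore apt to make the rho more negative. The rho with the span of the gene was -0.62, and span and exon length were themselves correlated at 0.60. Over all genes with a length rho was -0.33, so that the relation was not one of guidance genes alone.

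**Figure D3:**
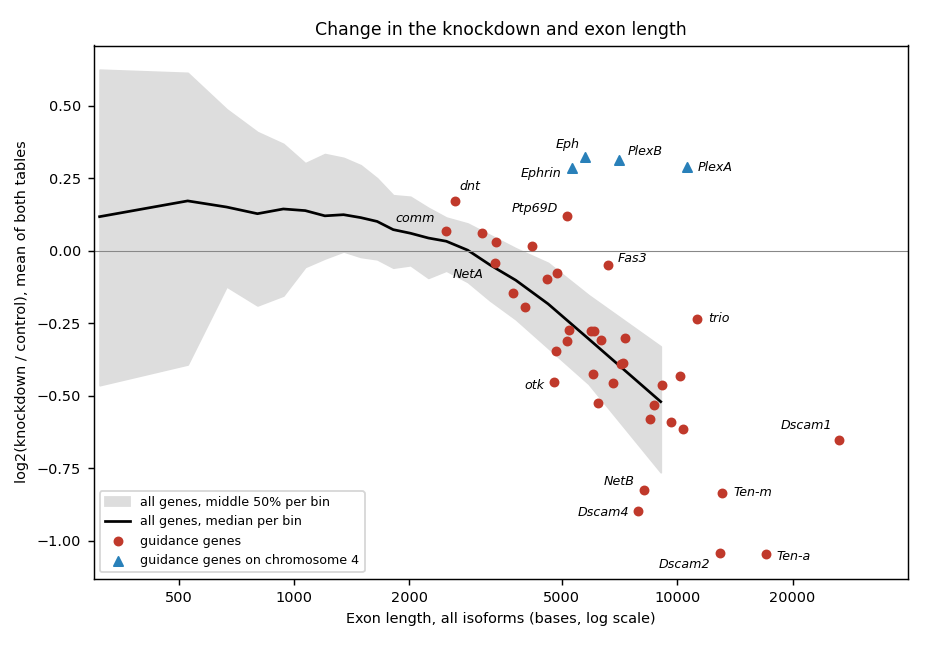
Log2 ratio of knockdown to control (mean of FPKM and normalised counts) against exon length in bases (log scale), with guidance genes as red circles, those on chromosome 4 as blue triangles, and the median and middle 50% of all genes in 20 bins of length as a line and a grey band. The line drops to -0.52 in the bin of longest genes; most circles lie along it, the 4 triangles lie above the band, and Ten-a, Dscam2, Dscam4, NetB and Ten-m lie lowest.

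Set beside the genes nearest in exon length, the guidance genes were no lower as a group. Their whole range of exon length held 4448 genes, of which 20.6% were lower and 5.91% were higher. The median log2 ratio there was -0.14, against -0.30 for the guidance genes. The genes of this wide range were not matched to the guidance genes in length. Whether length accounts for the difference was therefore not tested by it. For each guidance gene the 200 genes nearest in exon length were then taken. The median of their medians was -0.34, where the guidance genes had -0.30. Of the 42, 19 lay below the median of their neighbours and 23 above, by a median of 0.03, and 20 were within 0.1 of it. Those close to it included Dscam1, Lar, sli and Ptp10D, which were lower, and their neighbours had medians of -0.64, -0.59, -0.57 and -0.52. The targeted gene Itp-r83A was itself long, with a log2 ratio of -0.66 beside -0.59 for its neighbours. The source of the relation with length was not tested.

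The genes that stood furthest from those of like length were few. Below them lay Dscam4 (-0.90, neighbours -0.46), Dscam2 (-1.04, neighbours -0.61), Ten-a (-1.05, neighbours -0.64), NetB (-0.83, neighbours -0.49) and otk (-0.45, neighbours -0.19). Only Dscam4 was past the 25% fold relative to its neighbours in both units. Above them lay all 4 genes of chromosome 4, led by PlexA (0.29, neighbours -0.60), and also trio (-0.23, neighbours -0.61), Ptp69D (0.12, neighbours -0.24) and Fas3 (-0.05, neighbours -0.35). Thus trio and Fas3, which were below control, were above what genes of their length showed, and NetA (-0.04) had the same value as its neighbours.

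**Figure D4:**
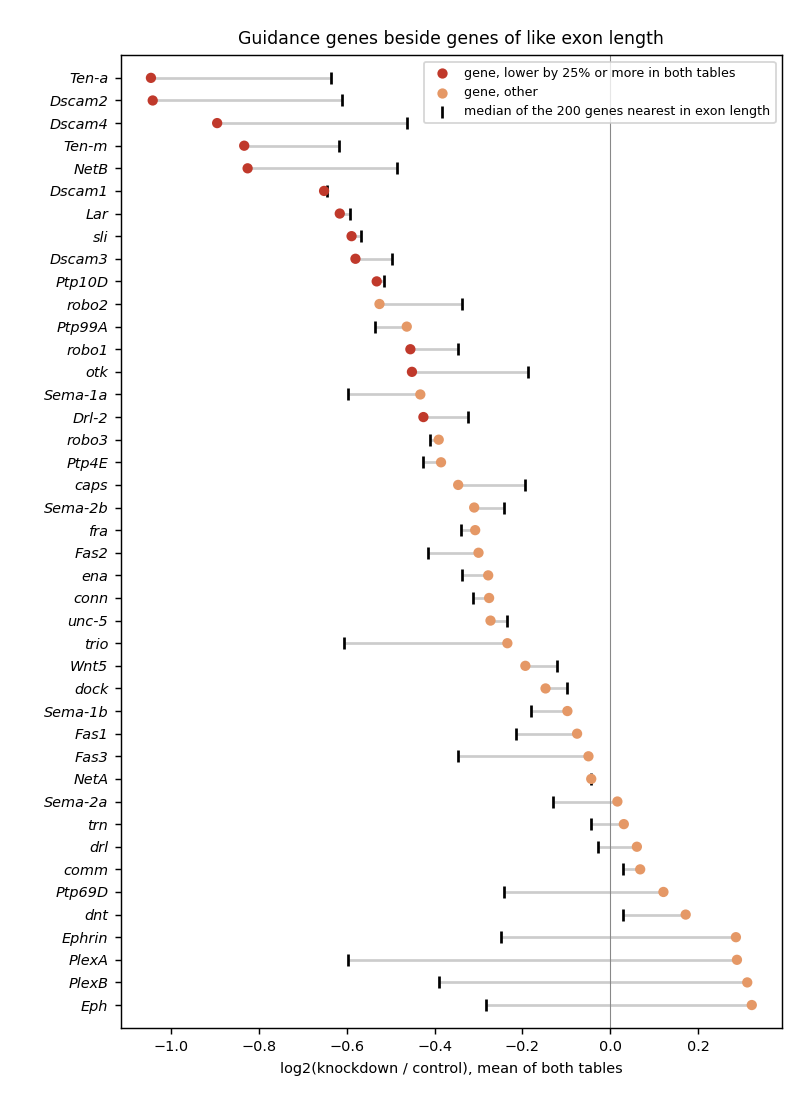
Log2 ratio of knockdown to control for each guidance gene (circle, dark red if lower by 25% or more in both units) and the median of the 200 genes nearest to it in exon length (black bar), joined by a line and ordered by log2 ratio. Circles lie left of their bar for 19 genes and right of it for 23, with PlexA, PlexB, Eph and Ephrin the furthest to the right of theirs.

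Other genes of the same pathways were examined as a background for these 42. Of 40 further guidance receptors, ligands and surface partners, 38 had values, of which 13 were lower and 1 was higher, with a median log2 ratio of -0.37. The lowest were the cell surface genes fred (4.40 FPKM in knockdown, 9.57 in control), haf, Ptp52F and tutl, at -1.12, -1.10, -0.95 and -0.77, and the 1 higher was the ligand gene Wnt2, with 28.0 FPKM in knockdown and 17.2 in control. The value of Ptp52F rests mostly on one library, since it had 195 normalised counts in the deeper knockdown library, within 25% of the control mean of 229, and 43.4 in the shallower. Of 40 further cytoplasmic effectors 9 were lower and 0 were higher, with a median of -0.15. Among them shot, the spectraplakin that links actin and microtubules, was lowest, with 5021 and 5783 normalised counts in knockdown against 10232 in control, followed by Liprin-alpha, a partner of Lar, at -0.71. Both lists were long too, with a median exon length of 5852 bases for the surface genes and 5097 for the effectors, against 1730.5 over all genes. Of all genes 16.7% were lower and 16.9% were higher. Neither list was set beside genes of like length.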

How the data were processed

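Per the labels, RNA came from the dissected larval CNS and libraries were made with an Illumina v2 kit. The authors aligned reads to dm6 with TopHat2 2.0.11, removed duplicates with Samtools, computed FPKM per group with Cuffdiff 2.2.0, counted reads with GenomicRanges and deposited DESeq group means of normalised counts, a signal made of read counts divided by size factors. The versions of DESeq and edgeR are not given in the sources used here. Columns of the authors' fold changes and p-values, and the edgeR table, which holds only these, were not used.

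Ratios of the deposited group values were computed with Python 3.11.15, pandas 2.3.3, NumPy 2.4.6 and SciPy 1.17.1. The reads of each knockdown library were solved from the group mean and the normalised value of 1 read, which the lowest means show (1 whole-number solution for 99.9% of 15054 genes, within 0.75 units of the last printed digit). This step was chosen after the data were seen. Size factors were 1.15 and 0.852 in knockdown, and 1.12, 1.10 and 0.826 in control. The 25% threshold is the smallest change the study considered. Exon length came from Ensembl release 115 (99.3% of genes). Intervals cover counting error only. The genes, gene lists and the look at length were chosen with earlier results of these data known. All 42 genes were described. Of other lists, at most 4 genes past the fold were named, largest first. Alternatives were each unit alone, a 2-fold threshold, an FPKM minimum of 1, a pseudocount of 1, centring on all genes or on genes of like length, and each knockdown library alone. Gene sequences were not used here.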

Additional observations from a re-analysis of the deposited data

How the results depend on the processing

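The number of lower guidance genes was 13, and it was 16 by FPKM alone, 13 by normalised counts alone, 13 with an FPKM minimum of 1, 12 with a pseudocount of 1 and 17 after centring on all genes. It was 0 with a 2-fold threshold and 1 (Dscam4) after centring each gene on the 200 genes nearest in exon length. With one knockdown library alone, by normalised counts, it was 12 to 19, and with both required 12. The number of higher genes was 0, and it was 1 by FPKM alone (PlexB), 2 by normalised counts alone (Ephrin and Eph), and 1 to 3 with one knockdown library alone. It was 6 after centring on genes of like length (PlexA, PlexB, Ephrin, Eph, Ptp69D and trio). The share of all genes called after that centring was not computed, so the counts of 1 lower and 6 higher have no background beside them. The median log2 ratio was -0.30, was -0.37 to -0.23 with one knockdown library alone, and changed sign, to 0.022, after centring on genes of like length. No paired analysis was possible because the files hold group values, in which the control libraries cannot be separated and the knockdown libraries carry no replicate number. For the same reason no control library could be left out. With 2 knockdown libraries and a single control mean, differences of the size of the gap between the knockdown libraries cannot be judged.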
